A study of Mus musculus with 12 samples.

Results

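Alpha-crystallins are the small heat shock proteins of the lens. The genes described here are Cryaa, Cryab and every listed gene named Hspb followed by a number, chosen by symbol alone. They are 8 of the 8676 genes listed in the table: Cryaa, Cryab, Hspb1, Hspb2, Hspb3, Hspb6, Hspb8 and Hspb11. RNA-seq was performed on P7 lenses of C57BL/6J mice. Wild type lenses were compared with lenses homozygous for the Epha2-Q722 missense allele, lenses homozygous for the in-frame insertion-deletion allele Epha2-indel722 and Epha2-null lenses, with 3 libraries of pooled lenses per genotype. Both knock-in alleles were made by CRISPR/Cas9 editing in the tyrosine-kinase domain and bred onto C57BL/6J, whereas the Epha2-null allele was an existing germline line on that background. EPHA2 is a receptor tyrosine kinase of lens cell membranes, and the comparisons ask how its mutation or loss changes lens transcripts at an early stage of the phenotype.

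Small heat shock proteins carry a conserved alpha-crystallin domain and bind unfolding proteins without using ATP, so that clients stay soluble until they are refolded or degraded. In lens fiber cells, which lose their organelles and renew little protein, CRYAA and CRYAB serve both as bulk structural crystallins and as chaperones of the beta- and gamma-crystallins, and mutations in either gene cause cataract in humans. Hspb1 encodes HSP27, a stress-inducible chaperone that also acts on actin. Hspb6 encodes HSP20, HSPB2 and HSPB3 form a complex in muscle, HSPB8 works with the co-chaperone BAG3 in selective autophagy of misfolded proteins, and Hspb11 is the intraflagellar transport gene Ift25, which carries the family symbol but serves the cilium.

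Library totals ranged from 14543069 to 20340688 counts. Epha2 itself stood at 51.4 to 63.1 normalized CPM in wild type, 30.6 to 36.9 in Epha2-null, 45.0 to 54.4 in Epha2-Q722 and 19.97 to 21.6 in Epha2-indel722 lenses, so transcripts of the gene were still counted in the null libraries. Normalized CPM are counts scaled to the library's total, the usual CPM, and corrected by TMM (trimmed mean of M-values) factors. Defining lens markers were present, with 9 of 9 fiber and 5 of 6 epithelium genes listed, whereas 0 of 5 skeletal muscle, 0 of 5 retina, 0 of 3 corneal epithelium, 0 of 5 red blood cell and 0 of 4 macrophage markers were listed. A whole lens is a mixture of cells, so fewer cells of a type and less RNA per cell cannot be told apart. Replicates are separate pools, so each p-value measures the spread between pools.

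In GENCODE vM21 (GRCm38) the 8 genes lie on 6 chromosomes, and the alpha-crystallin gene on chromosome 9 shares its locus with a relative. Cryaa (ENSMUSG00000024041) lies on the plus strand at chr17:31677807-31681733. Cryab (ENSMUSG00000032060, plus strand, chr9:50751325-50756636) and Hspb2 (ENSMUSG00000038086, minus strand, chr9:50751078-50752354) lie on opposite strands and overlap by 1030 bp, of which 252 bp are exon of both among the 834 exonic bp of Hspb2. The kit named for the libraries does not mark strand in its basic form and the strand setting of the counting was not given, so reads of Hspb2 and Cryab cannot be told apart in that stretch. Hspb1 (ENSMUSG00000004951) lies at chr5:135887919-135889563 on the plus strand, and Hspb8 (ENSMUSG00000041548) at chr5:116408491-116422864 on the minus strand. Hspb6 (ENSMUSG00000036854) lies at chr7:30552178-30555443 on the plus strand, Hspb3 (ENSMUSG00000051456) at chr13:113662896-113663676 on the minus strand and Hspb11 (ENSMUSG00000063172) at chr4:107253593-107279938 on the plus strand. The annotation holds 10 such genes in all. Hspb7, at chr4:141420779-141425311, starts 91395 bp past the end of Epha2 but was not listed, and neither was Hspb9, so neither was analysed here.

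Heat shock factors bind inverted repeats of a GAA unit, and the lens MAF proteins bind an element with the core TGCTGA. The RefSeq promoter table (GRCm38.p6) matched 6 of the 8 genes by symbol, with a pair of start sites for Hspb6, and both strands of each window of 250 bases before to 50 after the start site were searched. Cryab and Hspb2 had no window there, so their promoters were not searched. The 4 windows printed here, 5′ to 3′ on the strand of the gene, are those of the most abundant member and of the 3 members that share 1 heat shock half-element. Capitals mark matches to TGCTGA in Cryaa and to the heat shock form GAANNTTC in the others.
Cryaa (chr17:31677681-31677930): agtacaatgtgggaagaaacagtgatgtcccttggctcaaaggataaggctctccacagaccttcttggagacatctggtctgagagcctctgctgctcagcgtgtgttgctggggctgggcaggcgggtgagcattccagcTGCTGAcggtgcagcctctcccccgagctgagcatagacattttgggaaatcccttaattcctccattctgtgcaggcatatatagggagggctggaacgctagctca
Hspb1 (chr5:135887669-135887918): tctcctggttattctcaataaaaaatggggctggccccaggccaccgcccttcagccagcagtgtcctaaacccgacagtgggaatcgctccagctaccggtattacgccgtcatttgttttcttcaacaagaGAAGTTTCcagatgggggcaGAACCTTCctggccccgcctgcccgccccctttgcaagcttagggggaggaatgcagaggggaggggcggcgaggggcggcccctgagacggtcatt
Hspb6 (chr7:30553051-30553300): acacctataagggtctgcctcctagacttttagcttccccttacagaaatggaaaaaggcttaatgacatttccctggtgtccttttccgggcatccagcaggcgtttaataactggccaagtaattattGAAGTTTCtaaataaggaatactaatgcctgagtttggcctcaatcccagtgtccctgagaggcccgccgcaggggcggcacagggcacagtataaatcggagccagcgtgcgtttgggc
Hspb8 (chr5:116422855-116423114): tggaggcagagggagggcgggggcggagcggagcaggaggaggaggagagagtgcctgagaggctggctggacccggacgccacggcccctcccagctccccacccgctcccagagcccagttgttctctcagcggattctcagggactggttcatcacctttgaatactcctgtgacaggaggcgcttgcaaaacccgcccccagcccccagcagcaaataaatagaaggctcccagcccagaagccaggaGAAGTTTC

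Hspb1 held GAANNTTC at position -117 and again at -97, counted from the start site at 1. Hspb6 held it at -120 of its second start site and Hspb8 at 3, just inside the transcript, and in Hspb1 (-117), Hspb6 and Hspb8 the matched letters were the same 8, GAAGTTTC. The window of Hspb3 also held GAANNTTC, at -224. Of all 32851 promoter windows, 7.86% held GAANNTTC and 1.21% held GAAGTTTC, a motif counted after the matches were seen. The other form, TTCNNGAA, which 8.52% of windows held, and the heat shock element of 3 alternating units, which 0.603% held, were found in 0 of the member windows. This says nothing of Cryab and Hspb2, which had no window. TGCTGA was found in Cryaa at -108 and in 19.5% of all windows, and TATAAA in Hspb3 at -11, in Hspb6 at -29 and in 13.6%. These are matches of letters, and no binding was measured.

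The family spanned 5 orders of magnitude in the lens. On the scale of normalized CPM per kilobase of the annotated transcript, wild type levels were 190020 ± 9444 (SD, n = 3) for Cryaa, 29286 ± 1722 (SD, n = 3) for Cryab and 854 ± 108 (SD, n = 3) for Hspb1. Next came Hspb6 at 27.1 ± 2.43 (SD, n = 3), Hspb3 at 12.5 ± 1.28 (SD, n = 3) and Hspb11 at 9.10 ± 0.381 (SD, n = 3). Hspb2 stood at 7.03 ± 0.564 (SD, n = 3) and Hspb8 was lowest, at 1.65 ± 0.0987 (SD, n = 3). Cryaa and Cryab were thus the bulk of the family, and Hspb1 was the only other member above 100 CPM. The order held in every genotype except that Hspb2 (8.15 ± 0.128, SD, n = 3) and Hspb11 (7.70 ± 1.08, SD, n = 3) traded places in Epha2-null, where they differed by less than their spread. These 2 genes also trade places in wild type when the level is given per kilobase of all annotated exons, 2.67 for Hspb11 against 6.52 for Hspb2.

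**Figure D1:**
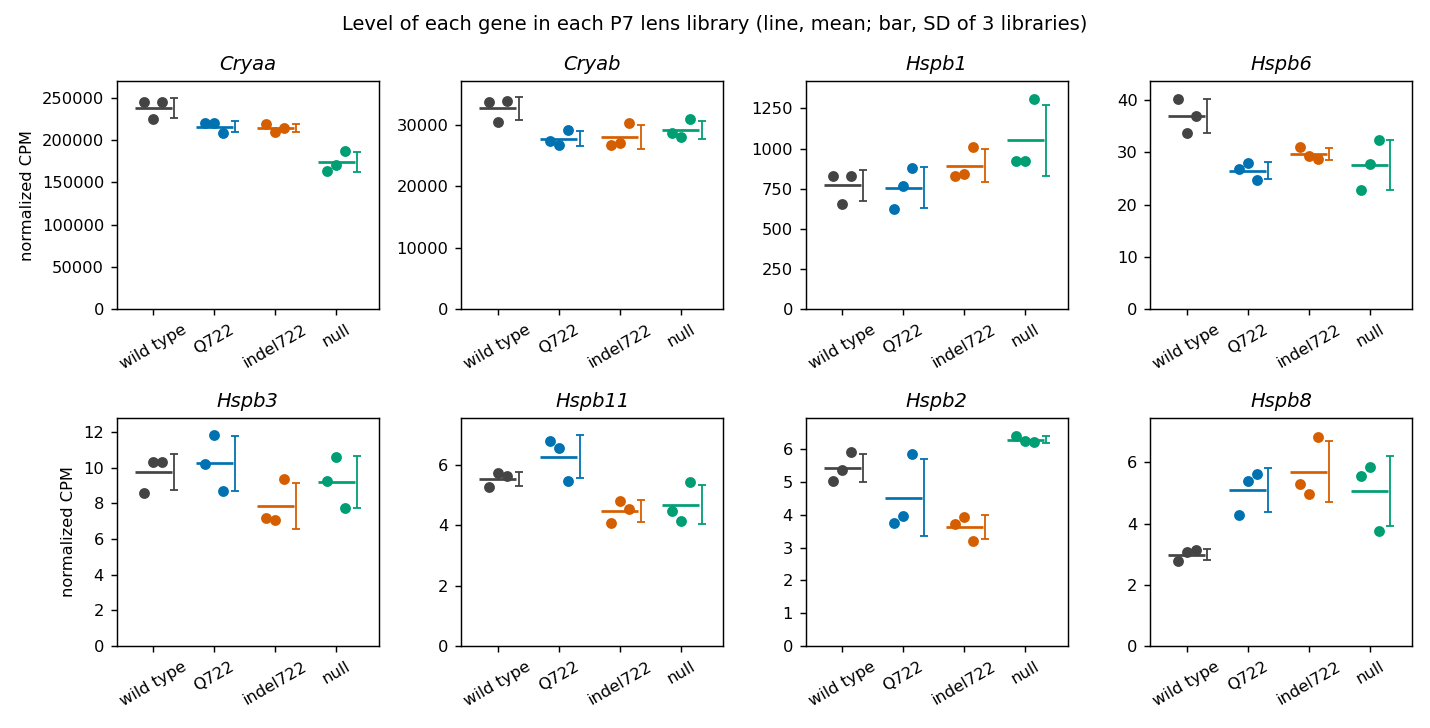
Normalized CPM (y axes, linear and starting at 0) of the 8 genes in each of the 12 P7 lens libraries, by genotype, where points are libraries in the order of their replicate numbers, lines means and bars the SD of 3 libraries. The 3 Epha2-null libraries of Cryaa sit between 163330 and 186790, below the lowest wild type library at 224600, and all 9 mutant libraries of Hspb8 sit above the wild type ones.

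Cryaa fell in Epha2-null lenses and Cryab in Epha2-indel722 lenses, and no other fall of an alpha-crystallin passed the test. The Cryab value was as low in Epha2-Q722 lenses but did not pass. Cryaa measured 244990, 224600 and 245240 normalized CPM in the wild type libraries and 163330, 171150 and 186790 in the Epha2-null libraries. All null libraries lay below all wild type libraries. The log2 fold change was -0.46 ± 0.068 (SE), and it passed edgeR's quasi-likelihood test with Benjamini-Hochberg adjustment over all 8676 genes (adjusted p = 6.14e-05). Cryaa measured 219930, 220050 and 208190 normalized CPM in Epha2-Q722 and 219470, 209860 and 214750 in Epha2-indel722. These libraries also lay below every wild type library, but the log2 fold changes of -0.14 ± 0.068 (SE) and -0.15 ± 0.068 (SE) did not pass (edgeR adjusted p = 0.272 and 0.162). Cryaa was lower in Epha2-null than in either knock-in, by a log2 difference of -0.31 from Epha2-Q722 (edgeR adjusted p = 0.00212) and, written the other way, with Epha2-indel722 above Epha2-null by 0.31 (edgeR adjusted p = 0.00415). Scaled by library totals without TMM, the Epha2-null change was -0.19 with an edgeR adjusted p of 0.0960, and the knock-in values were 0.01 and 0.02. The 2 differences between mutants did not pass there (edgeR adjusted p = 0.15 and 0.174) or with non-robust estimation (0.105 and 0.152). The 9 lens fiber markers, which include Cryba1 and Crygs, were also lower in null lenses, with sums of 93457, 96632 and 102550 normalized CPM, below the wild type range of 112980 to 126950. Of these, Mip (-0.38), Lim2 (-0.37), Cryba1 (-0.35) and Gja3 (-0.27) fell in Epha2-null by the same test, though none passed with library totals, where Gja3 stood at 0.002 and the others between -0.114 and -0.075. The other 5 fiber markers did not pass in Epha2-null, and the sum of the 5 listed epithelium markers, at 505 to 520, lay within the wild type range of 482 to 539. Within that sum the genes went both ways in Epha2-null. Gja1 fell by 0.62 on the log2 scale (edgeR adjusted p = 0.000312) and Cdh1 rose by 0.31 (edgeR adjusted p = 0.00955), whereas Cdh2, Pax6 and Foxe3 did not pass. The part of fiber cells in the Cryaa values was not tested.

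Cryab measured 33733, 30494 and 33909 normalized CPM in wild type, 27401, 26789 and 29195 in Epha2-Q722, 26715, 27110 and 30334 in Epha2-indel722 and 28659, 27991 and 30920 in Epha2-null. Both knock-ins lay below every wild type library, whereas the highest null library overlapped the lowest wild type one. The log2 fold change was -0.22 ± 0.072 (SE) in Epha2-indel722 (edgeR adjusted p = 0.0446). It was -0.24 ± 0.072 (SE) in Epha2-Q722 (edgeR adjusted p = 0.0534) and -0.16 ± 0.072 (SE) in Epha2-null (edgeR adjusted p = 0.159). No difference of Cryab between mutants passed the same test. The log2 differences were 0.01 for Epha2-indel722 minus Epha2-Q722, 0.07 for Epha2-null minus Epha2-Q722 and -0.06 for Epha2-indel722 minus Epha2-null. In that order the edgeR adjusted p values were 0.944, 0.572 and 0.704. The Epha2-indel722 call sat near the threshold: the edgeR adjusted p became 0.157 without wild type replicate 1, 0.127 without wild type replicate 3, 0.204 without Epha2-indel722 replicate 1 and 0.179 without Epha2-indel722 replicate 2, and 0.65 with library totals. The Epha2-Q722 value passed without wild type replicate 2 (edgeR adjusted p = 0.0225) or Epha2-Q722 replicate 3 (edgeR adjusted p = 0.0420).

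The balance of Cryaa to Cryab moved in Epha2-null lenses, and this ratio of counts within a library does not depend on the scaling. There were 7.26, 7.37 and 7.23 Cryaa counts per Cryab count in the wild type libraries and 5.70, 6.11 and 6.04 in the Epha2-null libraries. All 3 null libraries lay below all 9 others, with means of 7.29 ± 0.0698 (SD, n = 3) in wild type and 5.95 ± 0.222 (SD, n = 3) in null. The knock-ins ranged on both sides of wild type, with 8.03, 8.21 and 7.13 in Epha2-Q722 and 8.22, 7.74 and 7.08 in Epha2-indel722. No test was run on the ratio.

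Together Cryaa and Cryab took 24.5% ± 1.10 (SD, n = 3) of all wild type counts and 22.1% ± 2.11 (SD, n = 3) of those of null lenses. The knock-ins stood at 24.4% ± 0.218 (SD, n = 3) for Epha2-Q722 and 24.6% ± 1.42 (SD, n = 3) for Epha2-indel722, and all genotypes overlapped. With the other crystallins left out of the total, the null libraries, at 32.4% to 36.4%, lay below all others, which were at 38.3% to 41.0% (wild type), 38.1% to 38.8% (Epha2-Q722) and 37.1% to 38.8% (Epha2-indel722). As a share of crystallin counts alone, the alpha-crystallins made up 35.1% to 42.6% in the null libraries, which spanned the wild type range of 37.3% to 40.9%.

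**Figure D2:**
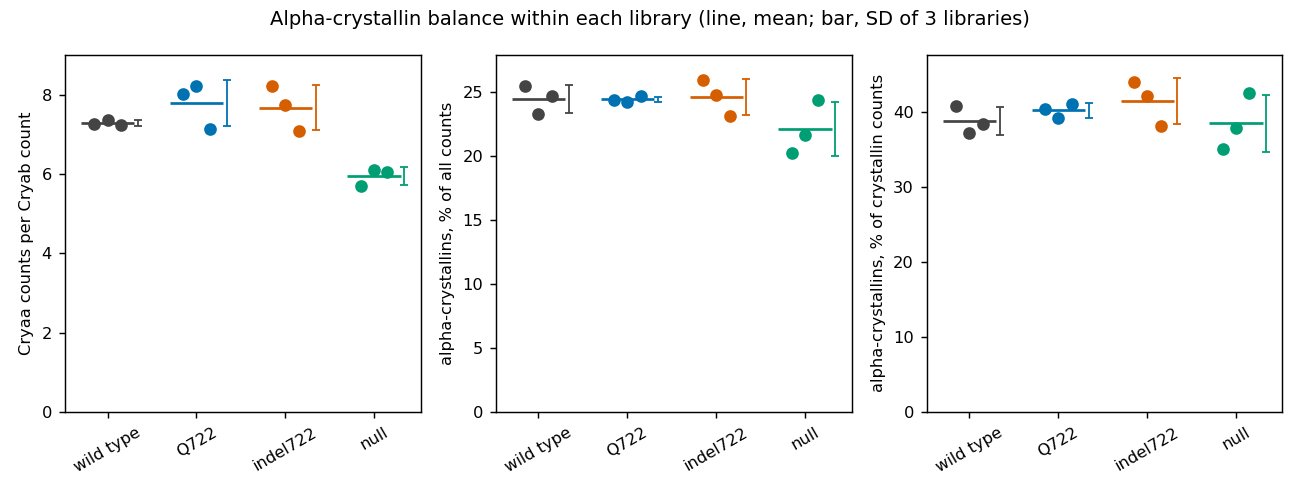
Cryaa counts per Cryab count (left), alpha-crystallins as a percent of all counts (middle) and as a percent of all crystallin counts (right) in each library by genotype, where points are libraries, lines means and bars the SD of 3 libraries. In the left panel the Epha2-null libraries lie at 5.70 to 6.11, below the other 9 libraries, which lie at 7.08 to 8.22.

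The other 14 listed crystallins are the beta- and gamma-crystallins, clients that the alpha-crystallins keep soluble. In Epha2-null, 4 of 14 fell and 0 rose, beside 6.22% of all genes that fell and 4.98% that rose, with a median log2 fold change of -0.39 against 0.01 over all genes tested. The 4 were the beta-crystallin genes Crybb1 (-0.55), Crybb3 (-0.46), Cryba1 (-0.35) and Cryba4 (-0.31), of which Crybb1 alone still passed with library totals, where Crygn rose (0.31, edgeR adjusted p = 0.00938), so that the list stood at 1 up and 1 down. In Epha2-Q722 Crybb2 fell by 1.13 on the log2 scale and Crygn rose by 0.31 (1 up and 1 down, beside 2.75% and 3.62% of all genes), with a list median of -0.15, and library totals gave 1 up and 3 down. In Epha2-indel722 Crygn rose by 0.23 and 0 fell (beside 6.73% and 6.37% of all genes), with a median of -0.26, and library totals gave 1 up and 1 down. This rise did not pass with DESeq2 size factors (edgeR adjusted p = 0.0529). With library totals, 1163, 2178 and 4695 of all 8676 genes rose and 134, 210 and 153 fell, for Q722, indel722 and null. Among the patterns nearest to that of Cryaa over the 12 libraries, by Pearson's r of log2 CPM, were those of Cryba1 (0.975), Evl (0.970), C2cd2 (0.961) and Tcp11 (0.951). Those nearest to Cryab were less alike: Rubcn (0.871), Adcy5 (0.863), Unkl (0.847), Fam222a (0.843) and Klhl8 (0.837). These are descriptions over libraries that share genotypes and scaling, and Cryaa and Cryab themselves were correlated at 0.388.

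Of the transcription factors and cofactors known at the alpha-crystallin genes, 19 of 22 were listed, and a minority passed the test: 0 rose and 1 fell in Epha2-Q722, whereas 2 rose and 3 fell in each of Epha2-indel722 and Epha2-null. The shares of all genes that rose and fell were 2.75% and 3.62% for Q722, 6.73% and 6.37% for indel722, and 4.98% and 6.22% for null. With library totals, which raised the median of all genes, 1 gene of the list rose and 0 fell for Q722, 5 rose against 1 that fell for indel722, and for null 9 rose while 1 fell. Of all 8676 genes, 1163, 2178 and 4695 rose there and 134, 210 and 153 fell, in the same order. Maf, the lens activator of crystallin genes, measured 1453, 1197 and 1365 normalized CPM in wild type and 860, 896 and 1024 in Epha2-null. It fell by 0.53 on the log2 scale there (edgeR adjusted p = 0.000104) and by 0.29 in Epha2-indel722 (edgeR adjusted p = 0.022), and the null fall alone still passed with library totals (-0.26, edgeR adjusted p = 0.0456). Sox1, a fiber cell factor of gamma-crystallin genes, fell by 0.39 in Epha2-null and by 0.22 in Epha2-indel722, and Sox2, its relative, fell by 0.33 in Epha2-null, and these falls did not pass with library totals. Smarca4, a chromatin remodeler, rose by 0.26 in Epha2-indel722 and by 0.24 in Epha2-null. Hsf4, the heat shock factor of the postnatal lens, rose in Epha2-indel722, with 378, 363 and 369 normalized CPM against 330, 285 and 334 in wild type (log2 fold change 0.23, edgeR adjusted p = 0.0384). The retinoid receptor genes Rarg (-0.95 in Epha2-indel722) and Rxrb (-0.29 in Epha2-Q722) fell, the latter not with library totals (-0.14, edgeR adjusted p = 0.264). The list medians were -0.04 for Epha2-null, -0.09 for Epha2-indel722 and -0.03 for Epha2-Q722.

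Hspb1 was not called in any genotype, though its highest library was a null one. It measured 828, 658 and 827 normalized CPM in wild type, 623, 768 and 878 in Epha2-Q722, 828, 842 and 1012 in Epha2-indel722 and 922, 925 and 1305 in Epha2-null. The null libraries lay above all wild type libraries, whereas both knock-ins overlapped wild type. The log2 fold changes were -0.03 ± 0.18 (SE), 0.21 ± 0.18 (SE) and 0.45 ± 0.18 (SE) for the Q722, indel722 and null lenses (edgeR adjusted p = 0.960, 0.529 and 0.172). With library totals the null value was 0.72 and passed (edgeR adjusted p = 0.00537). Hspb1 made up 91.9% to 95.9% of the counts of the 6 Hspb genes, which together held 0.0752% ± 0.00855 (SD, n = 3) of all wild type counts and 0.121% ± 0.0278 (SD, n = 3) of those of null lenses. Markers of vascular smooth muscle and pericytes, of which 3 of 6 were listed (Acta2, Pdgfrb and Rgs5), summed to between 58.3 and 86.3 normalized CPM in wild type and to 100.4, 110 and 195 in the 3 null libraries, the highest in replicate 3, which was also the highest for Hspb1. Acta2, Pdgfrb and Rgs5 each did not pass in Epha2-null (edgeR adjusted p = 0.0782, 0.133 and 0.715). Their means over all libraries were 70.5, 15.5 and 3.28 normalized CPM, so the sum is mostly Acta2. The defining markers Tagln, Myh11 and Cnn1 were not listed, and the part of these cells in the Hspb1 values was not tested.

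Hspb6 was lower in all 3 mutant genotypes. It measured 40.3, 33.7 and 37.0 normalized CPM in wild type, 26.8, 27.9 and 24.7 in Epha2-Q722, 31.0, 29.3 and 28.8 in Epha2-indel722 and 22.8, 27.8 and 32.4 in Epha2-null. Every mutant library lay below every wild type library. The log2 fold changes were -0.48 ± 0.098 (SE), -0.31 ± 0.097 (SE) and -0.42 ± 0.098 (SE), and each passed (edgeR adjusted p = 0.00406, 0.0388 and 0.00788). The 3 comparisons share the wild type libraries. The Epha2-indel722 call was lost without wild type replicate 1 (edgeR adjusted p = 0.147), wild type replicate 3 (0.0921) or Epha2-indel722 replicate 1 (0.0649), 2 (0.118) or 3 (0.113), and with library totals the log2 fold changes were -0.33, -0.15 and -0.15 and none passed (edgeR adjusted p = 0.0539, 0.342 and 0.264).

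Hspb8 was higher in all 3 mutant genotypes, at the lowest level of the family. Its counts were 37, 52 and 55 in the wild type libraries, or 2.79, 3.06 and 3.12 normalized CPM. Normalized CPM were 4.27, 5.41 and 5.62 in Epha2-Q722, 5.29, 4.98 and 6.83 in Epha2-indel722 and 5.56, 5.85 and 3.74 in Epha2-null. All 9 mutant libraries lay above all wild type libraries, with log2 fold changes of 0.77 ± 0.18 (SE), 0.91 ± 0.18 (SE) and 0.75 ± 0.18 (SE) in the same order (edgeR adjusted p = 0.00943, 0.00103 and 0.00782). The table lists genes above 3 CPM in at least 6 libraries, and all wild type libraries of Hspb8 were under that level before TMM (2.54 to 2.79 CPM), so the gene could be listed only because mutant libraries were higher, and its rise is given as a description. Without Epha2-null replicate 2 the null value was 0.63 and did not pass (edgeR adjusted p = 0.0593).

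Hspb2, Hspb3 and Hspb11 stood at 3 to 12 normalized CPM. Hspb2, the neighbor of Cryab, measured 5.04, 5.36 and 5.91 normalized CPM in wild type, 3.75, 3.95 and 5.87 in Epha2-Q722, 3.73, 3.94 and 3.22 in Epha2-indel722 and 6.41, 6.27 and 6.22 in Epha2-null. The indel libraries lay below and the null libraries above all wild type libraries. Hspb2 fell in Epha2-indel722 by 0.58 on the log2 scale (SE 0.16, edgeR adjusted p = 0.0142), whereas the values of -0.26 in Epha2-Q722 and 0.21 in Epha2-null did not pass (edgeR adjusted p = 0.399 and 0.411). The knock-ins differed from null themselves, with Epha2-indel722 below Epha2-null by a log2 difference of -0.79 (edgeR adjusted p = 0.000861) and Epha2-null above Epha2-Q722 by 0.46 (edgeR adjusted p = 0.0286). The Epha2-indel722 fall was lost without wild type replicate 3 (edgeR adjusted p = 0.0763) or Epha2-indel722 replicate 3 (0.0613) and with library totals (-0.41, 0.0725), where the null value of 0.47 passed (0.0159), and in Epha2-Q722 the value became -0.50 (edgeR adjusted p = 0.0402) without replicate 3. The difference between Epha2-null and Epha2-Q722 was lost without Epha2-Q722 replicate 1 (edgeR adjusted p = 0.143) or 2 (0.15), or Epha2-null replicate 1 (0.0756) or 2 (0.0703).

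Hspb2 and Cryab were both lower than wild type on average in the 2 knock-ins. In Epha2-null Hspb2 was higher (0.21) and Cryab lower (-0.16), but neither value passed. Pearson's r of log2 CPM between the 2 genes was 0.415 over the 12 libraries, and the part of shared reads was not tested. Of the nearest listed genes on either side of the pair, 2310030G06Rik, 4542 bp away on the left, passed in 0 comparisons with wild type, and 1110032A03Rik, 6192 bp away on the right, fell in Epha2-indel722 (log2 fold change -0.57, edgeR adjusted p = 0.0009). Hspb11 measured 5.27, 5.71 and 5.62 normalized CPM in wild type, 6.79, 6.56 and 5.46 with Epha2-Q722, 4.06, 4.78 and 4.54 with Epha2-indel722 and 4.48, 4.14 and 5.41 without EPHA2. The indel libraries lay below all wild type libraries and the other genotypes overlapped them. It passed in no comparison with wild type, but was lower than in Epha2-Q722 by a log2 difference of -0.49 in Epha2-indel722 (edgeR adjusted p = 0.0142) and -0.42 in Epha2-null (edgeR adjusted p = 0.0281). The former was lost without Epha2-Q722 replicate 1 (edgeR adjusted p = 0.0661) or 2 (0.0567) or Epha2-indel722 replicate 1 (0.0849). The latter was lost without Epha2-Q722 replicate 1 (edgeR adjusted p = 0.0981) or 2 (0.101) or Epha2-null replicate 1 (0.0877) or 2 (0.145). Hspb3 ranged from 8.58 to 10.3 normalized CPM in wild type and from 7.05 to 11.8 in the mutants, and it passed in no comparison, with log2 fold changes of 0.06, -0.33 and -0.09 (edgeR adjusted p = 0.871, 0.146 and 0.764); without Epha2-indel722 replicate 3 its value there was -0.46 (edgeR adjusted p = 0.0489).

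**Figure D3:**
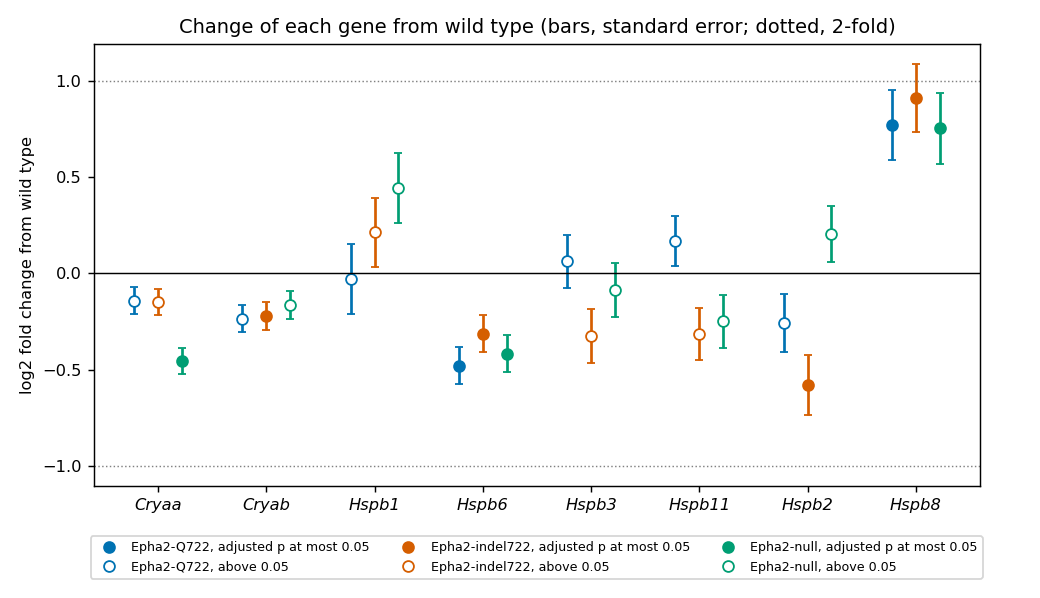
Log2 fold change from wild type (y axis) of the 8 genes in the 3 mutant genotypes (Q722, indel722 and null, by color) from 1 edgeR fit over 12 libraries, where bars are standard errors, filled points have an adjusted p of at most 0.05 and dotted lines mark 2-fold. Hspb6 lies between -0.48 and -0.31 and Hspb8 between 0.75 and 0.91 in the 3 genotypes, and no gene reaches the dotted lines.

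Counted over the family, 1 of 8 genes rose and 1 fell in Epha2-Q722, where 2.75% of all genes rose and 3.62% fell. In Epha2-indel722, 1 rose and 3 fell, beside 6.73% and 6.37% of all genes, and in Epha2-null, 1 rose and 2 fell, beside 4.98% and 6.22%. With library totals 1 rose and 0 fell in either knock-in, and in Epha2-null the split turned to 3 up (Hspb1, Hspb2 and Hspb8) and 0 down. With TMM factors Hspb8 was the gene that rose each time, so without it 0 rose. The libraries did not overlap those of wild type for 4 of 8 genes in Epha2-Q722 (22.4% of all genes), 5 of 8 in Epha2-null (28.6%) and 6 of 8 in Epha2-indel722 (32.0%). Each of these counts includes Hspb8, whose listing required higher mutant libraries and so favored such a gap. A change of at least 2-fold was seen in 0 of 8 in each comparison, beside 0.807%, 1.01% and 0.841% of all genes, though with library totals Hspb8 stood at 1.02 on the log2 scale in Epha2-null. Between mutants, 1 of 8 differed for Epha2-indel722 against Epha2-Q722 (12.4% of all genes), 3 of 8 for Epha2-null against Epha2-Q722 (17.0%) and 2 of 8 for Epha2-indel722 against Epha2-null (9.85%). With 8 genes, each is a large share, so these counts are given as description. The median log2 fold changes of the family were -0.09 (Q722), -0.27 (indel722) and -0.13 (null), against 0.01, 0.00 and 0.01 for all genes. With library totals without TMM the median of all genes itself stood at 0.16, 0.17 and 0.28, and those of the family at 0.07, -0.10 and 0.14. A change of scaling moves all genes alike and leaves the gap between these medians nearly as it was.

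The co-chaperone genes Bag3, Dnajb1 and Dnajb4 rose in all 3 mutant genotypes. Of the heat shock factors and cytosolic chaperones, 31 of 33 were listed, and 4 rose and 0 fell in Epha2-Q722, 9 rose and 3 fell in Epha2-indel722 and 3 rose and 1 fell in Epha2-null. The shares of all genes were 2.75% up and 3.62% down for Q722, 6.73% and 6.37% for indel722, and 4.98% and 6.22% for null. With library totals the list counts were 11, 17 and 21 up and 0 down in each, and its medians 0.20, 0.28 and 0.25. Under that scaling 1163, 2178 and 4695 of all 8676 genes rose and 134, 210 and 153 fell. The medians of all genes there were 0.155, 0.167 and 0.279, so the list median lay below that of all genes in Epha2-null and above it in both knock-ins. Bag3, the partner of HSPB8, measured 16.3, 15.7 and 16.4 normalized CPM in wild type, 19.3, 24.5 and 25.8 in Epha2-Q722, 27.2, 31.2 and 28.0 in Epha2-indel722 and 26.2, 26.0 and 30.8 in Epha2-null. All 9 mutant libraries lay above wild type, with log2 fold changes of 0.53 ± 0.10 (SE), 0.84 ± 0.098 (SE) and 0.78 ± 0.099 (SE) (edgeR adjusted p = 0.00129, 2.76e-06 and 1.06e-05). Bag3 stood well above the listing limit in every library, unlike Hspb8.

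Dnajb1 and Dnajb4, HSP40 co-chaperones that hand clients to HSP70, showed the same direction. Dnajb1 rose by 0.26, 0.46 and 0.51 and Dnajb4 by 0.34, 0.53 and 0.64 on the log2 scale, in the same order of genotypes. With DESeq2 size factors, library totals or TMM factors without crystallins these 9 rises, Bag3 included, each still passed. Ahsa1, an activator of HSP90, rose by 0.20 in Epha2-Q722 and 0.19 in Epha2-indel722, where it did not pass with TMM factors computed without crystallins (edgeR adjusted p = 0.0513). In Epha2-indel722 Hspa4l (0.50), Dnaja1 (0.25), Hsf4 (0.23), Bag1 (0.22) and Hsp90aa1 (0.17) also rose, the last not with DESeq2 size factors (edgeR adjusted p = 0.052). Hspa2 (-0.45), the constitutive HSP70 gene Hspa8 (-0.37) and the HSP90 co-chaperone gene Ptges3 (-0.32) fell there, and Dnajb2 (-0.38) fell in Epha2-null, but with library totals these 4 falls did not pass. List medians were 0.05, 0.11 and -0.01, against 0.005, -0.002 and 0.011 for all genes. The list median thus lay above that of all genes in both knock-ins, whereas in Epha2-null the rise was not one of the list as a whole. In each genotype most genes of the list did not pass. Of the filament proteins that alpha-crystallins bind, 7 of 9 were listed, and Nes, encoding nestin, rose by 1.24 in Epha2-Q722 and 0.86 in Epha2-indel722, whereas Actg1 rose by 0.26 in Epha2-null and 0 fell in any genotype. That is 1 up and 0 down in each, beside 2.75% and 3.62% of all genes for Q722, 6.73% and 6.37% for indel722, and 4.98% and 6.22% for null. Bfsp2 was not called, but all mutant libraries lay below all wild type ones. Its mean in Epha2-indel722 was 1309 normalized CPM against 3373 in wild type (log2 fold change -1.37, edgeR adjusted p = 0.0741).

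**Figure D4:**
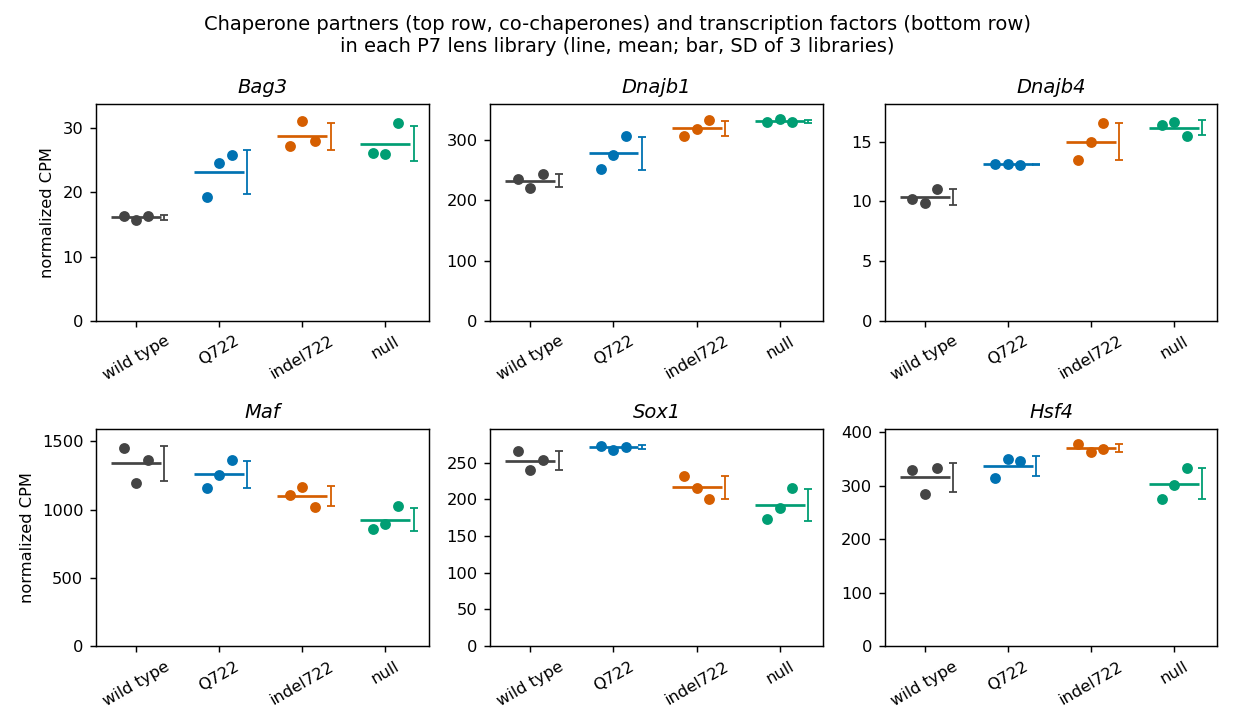
Normalized CPM (y axes, linear and starting at 0) of the co-chaperone genes Bag3, Dnajb1 and Dnajb4 and the transcription factor genes Maf, Sox1 and Hsf4 in each P7 lens library by genotype, where points are libraries, lines means and bars the SD of 3 libraries. All mutant libraries of Bag3, at 19.3 to 31.2, lie above the wild type ones, and the null libraries of Maf, at 860 to 1024, lie below them.

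Among the members, the closest shared pattern over the 12 libraries was that of Cryab and Hspb6, with a Pearson's r of 0.692 of log2 CPM, followed by Cryaa and Hspb6 at 0.683. Hspb1, the stress-inducible member, was close to uncorrelated with Hspb6 (-0.03). Correlations with Hspb8 are left out, since its listing required mutant libraries above the limit and so selected for higher mutant than wild type values. These values are descriptions over 12 libraries of 4 genotypes and share the same scaling.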

How the data were processed

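RNA-seq libraries of P7 lenses, 3 per genotype, were analysed from the table of read counts that the authors deposited. Alignment by the authors to mm10 used STAR (2.5.3a), followed by filtering with SAMtools (1.4.1) and counting per gene with HTSeq (0.11.0). The annotation release and strand setting are not given in the sources used here. The deposited CPM are counts scaled to the full library total and served to recover that total and the listing limit. Columns of the authors' own fold changes and p-values were not used, and 0 sample columns were left out. Counts were tested with edgeR 4.0.16 in R 4.3.3 (glmQLFit with robust estimation, glmQLFTest, TMM factors) in 1 fit of 12 libraries with genotype as the only term and 8 residual degrees of freedom, and Benjamini-Hochberg adjustment ran over 8676 genes. filterByExpr removed 0. A gene passed at an adjusted p of at most 0.05. A standard error is the log2 fold change over the root of F. DESeq2 1.42.0 served as an alternative, with other scalings, filters, tests and left-out replicates. The procedure was tested on simulated data. Named are all members, list genes that passed against wild type, the 5 genes most like Cryaa and Cryab, and the neighbors of the Cryab and Hspb2 pair; some genes that meet this rule are not reported here. Members were taken by symbol alone, whereas the related gene lists were chosen with earlier results of these data known.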

Additional observations from a re-analysis of the deposited data

Results flagged for a closer look

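The change from wild type differed between genotypes by the test of the mutants against each other for 3 of the 8 genes. For Epha2-indel722 against Epha2-Q722 it was 1 of 8, beside 12.4% of all genes. Epha2-null against Epha2-Q722 gave 3 of 8 (17.0% of all genes) and Epha2-indel722 against Epha2-null 2 of 8 (9.85%). For Cryaa the log2 difference was -0.31 for Epha2-null minus Epha2-Q722 and 0.31 for Epha2-indel722 minus Epha2-null. For Hspb2 it was 0.46 for Epha2-null minus Epha2-Q722 and -0.79 for Epha2-indel722 minus Epha2-null. For Hspb11 it was -0.49 for Epha2-indel722 minus Epha2-Q722 and -0.42 for Epha2-null minus Epha2-Q722. As given above, both Cryaa differences were lost with library totals and with non-robust estimation. Both Hspb11 differences, and that of Hspb2 between Epha2-null and Epha2-Q722, were lost when certain single replicates were left out. Groups of 3 libraries are too small for a test of single libraries that stand apart.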

How the results depend on the processing

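Scaling was the choice that mattered most. With library totals without TMM, Cryaa stood at -0.1855 in Epha2-null, 0.0075 in Epha2-Q722 and 0.017 in Epha2-indel722 on the log2 scale, and Cryab at -0.0584 in Epha2-indel722 and 0.105 in Epha2-null. Hspb1 turned to 0.1262 in Epha2-Q722, Hspb11 to 0.0197 and Hspb3 to 0.1807 in Epha2-null, Cryaa to 0.0094 between Epha2-indel722 and Epha2-Q722, and Hspb8 to 0.096 between Epha2-null and Epha2-Q722. That setting called 1 member in Epha2-Q722, 1 in Epha2-indel722 and 1 between Epha2-indel722 and Epha2-null, against 2, 4 and 2. In Epha2-null it called 3, as before, but with 3 up and 0 down in place of 1 and 2. It also moved the split of all genes in Epha2-null from 432 higher and 540 lower to 4695 and 153, in Epha2-indel722 from 584 and 553 to 2178 and 210, and in Epha2-Q722 from 239 and 314 to 1163 and 134. A mean of at least 10 CPM, which takes out Hspb2, Hspb3, Hspb8 and Hspb11, left 1 call in Epha2-Q722, 2 in Epha2-indel722, and 0, 1 and 1 between mutants. The Cryab change in Epha2-Q722 passed with TMM without crystallins (-0.238) and the DESeq2 Wald test (-0.2362), and that in Epha2-indel722 failed with non-robust estimation (-0.2217) and with the 6 libraries compared alone (-0.2263). Between Epha2-null and Epha2-Q722, DESeq2 and the 6 libraries alone each left 1 call of 3, and non-robust estimation left 1 of 2 between Epha2-indel722 and Epha2-null.

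With each replicate left out in turn, the members past the test numbered 2 to 3 in Epha2-null, 1 to 4 in Epha2-indel722, 2 to 4 in Epha2-Q722, 0 to 2 for Epha2-indel722 against Epha2-Q722, 1 to 3 for Epha2-null against Epha2-Q722 and 2 for Epha2-indel722 against Epha2-null. Log2 fold changes from wild type ranged from -0.29 to -0.21 for Cryab, -0.15 to 0.094 for Hspb1 and -0.0604 to 0.18 for Hspb3 with Epha2-Q722, from -0.28 to -0.19 for Cryab with Epha2-indel722, and from -0.21 to 0.022 for Hspb3 in Epha2-null. Differences that turned lay near 0: for Epha2-indel722 minus Epha2-Q722, -0.035 to 0.007 for Cryaa, -0.047 to 0.0501 for Cryab and -0.0017 to 0.23 for Hspb8, for Epha2-null minus Epha2-Q722, -0.064 to 0.18 for Hspb6 and -0.14 to 0.15 for Hspb8, and for Epha2-indel722 minus Epha2-null, -0.15 to 0.048 for Hspb11, -0.016 to 0.23 for Hspb6 and -0.014 to 0.28 for Hspb8.

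The labels do not say that replicate numbers pair the samples. Same-numbered libraries of different genotypes had correlations of deviations from the genotype mean of -0.138 to 0.204 over all genes. Such correlations would miss a shared effect limited to some genes. With the replicate block, Cryab passed in Epha2-Q722 (-0.2349, edgeR adjusted p = 0.0461), Hspb1 passed in Epha2-null (0.43, 0.00847) and against Epha2-Q722 (0.47, 0.00321), Hspb6 did not pass in Epha2-indel722 (-0.31, 0.0652), and no other member call changed. Depth limits the rare members: Hspb2, Hspb8 and Hspb11 had 37 to 131 counts per library.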
